A study of Mus musculus with 2 samples.

Results

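Regulatory T cells (Tregs) are CD4 T cells that restrain other immune cells and accumulate in many tumors. Their identity rests on the transcription factor Foxp3, they compete for IL-2 through the high-affinity receptor chain encoded by Il2ra, and in tissues they respond to IL-33 through the receptor encoded by Il1rl1 and secrete the growth factor amphiregulin (Areg) and the suppressive cytokine IL-10. Several of these genes are also used outside Tregs: Ikzf2, Tnfrsf18 and Icos by activated T cells and innate lymphocytes, Il1rl1 by mast cells and type 2 innate lymphoid cells (ILC2), and Areg and Il10 by myeloid cells.

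The 9 genes described here were the transcription factors Foxp3 and Ikzf2 (Helios), the cytokine receptors Il2ra (CD25) and Il1rl1 (ST2), the costimulatory receptors Tnfrsf4 (OX40), Tnfrsf18 (GITR) and Icos, and the secreted factors Areg and Il10. They were chosen by name among the 31053 genes of both count matrices. All 9 had UMIs in both libraries, a UMI (unique molecular identifier) standing for 1 captured RNA molecule.

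Immune cells of GL261 gliomas, tumors grown from a mouse glioma cell line, were profiled by droplet single-cell RNA sequencing. According to the methods the mice were male and 8 to 12 weeks old. The WT library came from C57BL/6 mice without the transgene (CD169-DTR wild type) and the CD169-DTR library from heterozygous C57BL/6 mice, which carry the diphtheria toxin receptor in the Siglec1 (CD169) locus, so that the toxin can kill CD169-expressing cells of any kind. Mice of both groups received diphtheria toxin 1 day before and 4 days after GL261 cells were placed in the brain, and CD45.2-positive live cells of the right hemisphere were sorted at day 10. Each library pooled 3 mice, so each group was 1 sample, no difference between groups has a replicate check, and all intervals given here are 95% intervals that cover counting error only.

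Barcodes were kept as cells from 1000 UMIs upward if no more than 17% of their UMIs were mitochondrial. This gave 10107 cells in the WT library (median 7776 UMIs) and 7604 in the CD169-DTR library (median 8099.5 UMIs). The files shared 21 cell barcodes, where 11.31 were expected for independent draws. Siglec1 itself was at 37.8 CPM (UMIs per 1000000 UMIs of the class) in WT macrophages (interval 35.0 to 40.7) and 11.8 CPM in CD169-DTR macrophages (9.78 to 14.2), and in microglia at 18.4 and 5.41 CPM; 1 copy of the gene is replaced in heterozygotes. In T cells the Siglec1 counts were 2 and 1 UMIs. The T cell class, named from markers that hold none of the 9 genes, had 422 WT cells, 4.18% of that library, and 207 CD169-DTR cells, 2.72%. Clusters of lymphocytes led by myeloid genes (89 and 15 cells, median 14449 and 13585 UMIs) were kept out of it, although they held 60 WT and 2 CD169-DTR Foxp3 UMIs.

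On the mm10 assembly the genes were spread over 5 chromosomes. Foxp3 lies at chrX:7573644-7595245 on the plus strand, Il2ra at chr2:11642807-11693193 on the plus strand and Areg at chr5:91139599-91148432 on the plus strand. Chromosome 1 holds Il1rl1 (chr1:40429570-40465415, plus), Icos (chr1:60977927-61000320, plus), Ikzf2 (chr1:69531214-69687245, minus) and Il10 (chr1:131019845-131024974, plus). Tnfrsf4 (chr4:156013843-156016612) and Tnfrsf18 (chr4:156026164-156028895) are plus-strand neighbors 9.55 kb apart. RefSeq promoter entries (GRCm38.p6) were found for 6 of the 9 genes, with no entry under the symbols Ikzf2, Icos and Il10. RefSeq's start sites differ from the gene starts given above for Foxp3, Il2ra, Tnfrsf4 and Tnfrsf18 and for a second entry of Il1rl1. The Tnfrsf4 window therefore ends before the start of its gene, and the Tnfrsf18 window runs past the start of its gene. Shown are the 250 bases before the RefSeq start of the 3 genes with the highest ratios between the libraries in T cells, Il2ra, Tnfrsf4 and Areg, and of Tnfrsf18, the neighbor of Tnfrsf4, with motif matches in capitals:
Il2ra (chr2:11642542-11642791, plus): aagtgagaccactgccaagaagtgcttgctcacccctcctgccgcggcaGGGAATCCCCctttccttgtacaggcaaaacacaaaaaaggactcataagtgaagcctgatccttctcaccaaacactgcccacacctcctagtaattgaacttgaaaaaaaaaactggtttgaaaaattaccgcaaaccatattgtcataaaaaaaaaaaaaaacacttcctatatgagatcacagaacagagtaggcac
Tnfrsf4 (chr4:156013445-156013694, plus): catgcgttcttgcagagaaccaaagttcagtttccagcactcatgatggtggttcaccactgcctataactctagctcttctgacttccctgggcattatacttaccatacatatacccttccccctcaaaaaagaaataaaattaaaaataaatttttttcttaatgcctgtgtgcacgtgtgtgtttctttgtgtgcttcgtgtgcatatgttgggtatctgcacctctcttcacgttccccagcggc
Tnfrsf18 (chr4:156026072-156026321, plus): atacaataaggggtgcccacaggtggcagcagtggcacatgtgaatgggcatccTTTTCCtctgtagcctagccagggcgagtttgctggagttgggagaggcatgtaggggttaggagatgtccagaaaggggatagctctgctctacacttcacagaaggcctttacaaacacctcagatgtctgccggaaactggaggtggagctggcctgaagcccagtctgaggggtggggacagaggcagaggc
Areg (chr5:91139349-91139598, plus): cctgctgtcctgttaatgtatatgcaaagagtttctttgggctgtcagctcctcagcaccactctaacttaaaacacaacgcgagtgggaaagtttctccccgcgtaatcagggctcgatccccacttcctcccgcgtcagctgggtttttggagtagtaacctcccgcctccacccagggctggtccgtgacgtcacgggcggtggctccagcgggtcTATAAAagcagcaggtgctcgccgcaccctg
Both strands were searched for the AP-1 motif, written TGANTCA with N for any base. They were searched likewise for an NF-kB motif, which opens with GGGA and closes with a pair of C after 4 bases of any kind. The NFAT motif was taken as GGAAAA, the core that this calcium-dependent factor of activated T cells is known to bind. The TATA box, a core promoter element, was taken as TATAAA. The capitals mark 1 NF-kB match in Il2ra that begins 201 bases before the start, 1 NFAT match in Tnfrsf18 at 196 bases, on the reverse strand, and 1 TATA match in Areg at 31 bases, while the Tnfrsf4 window held none of these letters. The 3 genes shared no match. Among 32851 mouse promoter entries of this length, 17.63% held the NF-kB letters, 20.43% the NFAT letters, 12.37% the TATA letters and 6.749% the AP-1 letters, so a match is a description of the window and no more.

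Foxp3 was the gene of the set most concentrated in T cells. It was at 58.4 CPM in WT T cells (50.5 to 67.1) and 32.9 CPM in CD169-DTR T cells (24.2 to 43.6), and T cells held 68.6% and 82.8% of all its UMIs in cells. Most of the remaining WT counts were in the lymphocyte clusters led by myeloid genes, at 46.9 CPM. In WT macrophages and microglia 2 cells each carried a Foxp3 UMI.

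The share of T cells with a Foxp3 UMI was compared after each cell had been thinned to 4000 UMIs, since a deeper cell is more likely to show a rare transcript. It was 26 of 339 WT cells, or 7.67% (exact Clopper-Pearson interval 5.07 to 11.0), and 8 of 176 CD169-DTR cells, or 4.55% (1.98 to 8.76). Without thinning the shares were 10.4% (44 of 422) and 6.76% (14 of 207). The intervals of the libraries overlapped in both versions, while the Foxp3 CPM intervals of T cells given above did not. Overlap is not a test, and with 1 library per group none was possible. Whether the Foxp3-positive share differed was therefore not decided. As background, thinned macrophages, which should lack the gene, gave 1 of 1718 WT cells (0.0582%) and 0 of 666 CD169-DTR cells, for which a limit of 3 counts allows a share of cells with a UMI of up to 0.45%. Before thinning, the median depths of the whole classes were 7201 and 11755 UMIs in macrophages and 6287 and 6365 in T cells.

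Foxp3-positive cells were not spread evenly over the T cell subclusters. One subcluster detected 7 of 10 regulatory T cell markers that are not among the 9 genes, was led by Penk, Ctla4, Cd4, Dusp4 and Izumo1r, and is called Treg-like here. It held 77 WT and 42 CD169-DTR cells, of which 30 and 14 had a Foxp3 UMI, so it was not made of Foxp3-positive cells alone. It also held the effector T cell gene Ifng, at levels given below that differed between the libraries. Values of this subcluster are therefore not values of Tregs alone. In WT, 9 of 26 cells in a dividing subcluster (led by Ube2c, Birc5 and Mki67) and 5 of 100 cells in a subcluster led by naive T cell genes such as Ccr7 and Lef1 also had a Foxp3 UMI. In CD169-DTR, 0 of 7 dividing cells and 0 of 60 Ccr7 Lef1 cells had one. The Cd8a subcluster (177 and 82 cells) and a subcluster led by Il17a and Il13 that mixed gamma-delta T cell and ILC2 markers (42 and 16 cells) held no Foxp3 UMI in either library.

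**Figure D1:**
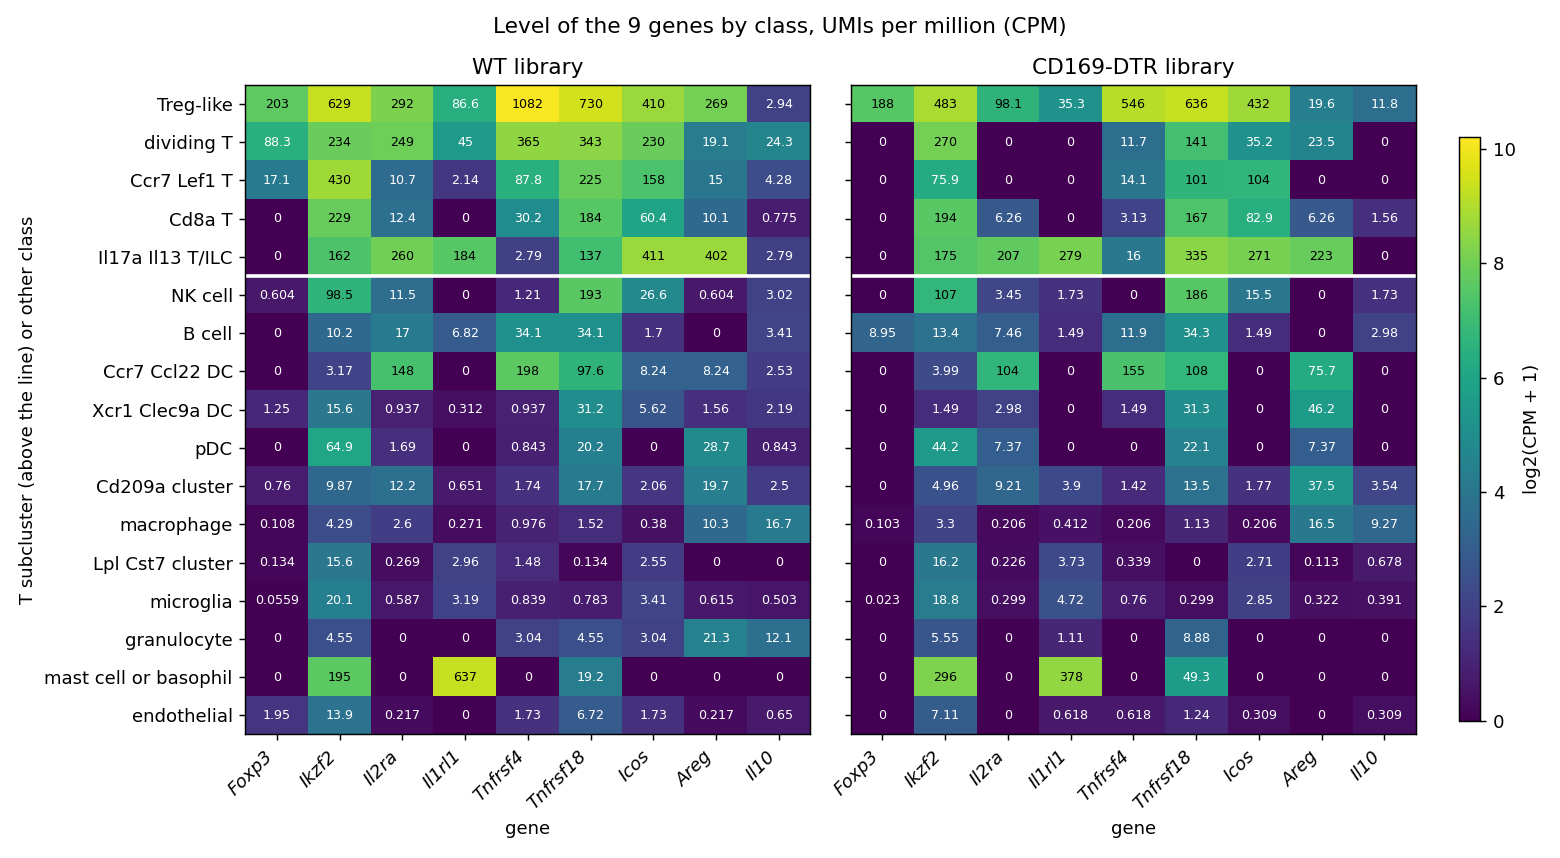
Level of each of the 9 genes (columns, CPM) in T cell subclusters (above the white line) and other classes (rows), with the WT library on the left and the CD169-DTR library on the right, colored by log2(CPM + 1). Tnfrsf4 in the WT Treg-like subcluster, at 1082 CPM, is the highest value of the map, while Il1rl1 is highest in mast cells or basophils and Il10 is below 25 CPM throughout.

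The transcription factor Ikzf2, which is used by Tregs and by some innate-like and activated T cells, reached beyond the Foxp3-positive subclusters. It was at 629 WT and 483 CD169-DTR CPM in Treg-like cells, but also at 229 and 194 CPM in Cd8a cells and at 162 and 175.5 CPM in the Il17a Il13 subcluster. The Ccr7 Lef1 subcluster was the one where the libraries stood apart, at 430 CPM in WT (42 of 100 cells) and 75.9 CPM in CD169-DTR (10 of 60 cells). Outside T cells, Ikzf2 was at 98.5 and 107 CPM in NK cells, 64.9 and 44.2 CPM in plasmacytoid dendritic cells (pDC), 195 and 295.5 CPM in mast cells or basophils, and 20.1 and 18.8 CPM in microglia.

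The costimulatory receptors differed in how far they were restricted. Tnfrsf4, which binds OX40 ligand, was at 1082 WT and 546 CD169-DTR CPM in Treg-like cells, against 30.2 and 3.13 CPM in Cd8a cells and 1 and 2 UMIs in the Il17a Il13 subcluster. Tnfrsf18, the receptor for GITR ligand, was broad: 730 and 636 CPM in Treg-like cells, 184 and 167 CPM in Cd8a cells, 137 and 335 CPM in the Il17a Il13 subcluster, and 193 and 186 CPM in NK cells. Icos, which binds ICOS ligand on antigen-presenting cells, was at 410 and 432 CPM in Treg-like cells and at 411 and 271 CPM in the Il17a Il13 subcluster, and was lower in Cd8a cells (60.4 and 82.9 CPM) and NK cells (26.6 and 15.5 CPM). Thinned to equal depth, Treg-like cells exceeded Ccr7 Lef1 cells by a log2 ratio of 4.85 (3.85 to 6.07) for Tnfrsf4, 2.08 for Tnfrsf18 and 1.28 for Icos in WT, and by 4.90 (3.29 to 7.22), 2.34 and 2.12 in CD169-DTR. Over all genes tested in this contrast 15% and 24.6% were at least 2-fold higher in Treg-like cells. The 9 genes were left out of the features that built the clusters.

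Of the cytokine receptors, Il2ra was at 292 WT and 98.1 CD169-DTR CPM in Treg-like cells and at 260 and 207 CPM in the Il17a Il13 subcluster, with 12.4 and 6.26 CPM in Cd8a cells. Il1rl1 was at 86.6 and 35.3 CPM in Treg-like cells and at 184 and 279 CPM in the Il17a Il13 subcluster. There, the 9 WT cells with more ILC2 than gamma-delta marker UMIs held 60 of its 66 UMIs and 139 of the 144 UMIs of Areg. The 3 CD169-DTR cells of that kind held 31 of 35 Il1rl1 and 22 of 28 Areg UMIs. Il1rl1 and Areg in this subcluster therefore came mostly from a few ILC2-marker cells, 30 WT and 9 CD169-DTR cells having more gamma-delta marker UMIs.

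Areg and Il10, the secreted factors, were patchy. In Treg-like cells Areg was at 269 CPM in WT and 19.6 CPM in CD169-DTR, with 11 of 77 and 3 of 42 cells carrying a UMI. A single WT cell held 130 of the 183 WT UMIs. That cell had 35027 UMIs, 121 Penk UMIs (Penk encodes proenkephalin), 31 Tnfrsf4 UMIs and 3 Cd4 UMIs but 0 Foxp3 UMIs, and it was not among the cells with a high doublet score. In CD169-DTR the richest T cell had 19 Areg, 38 Il13 and 10 Il1rl1 UMIs and belonged to the Il17a Il13 subcluster. Il10 was near the lower limit of detection in T cells, with 20 WT UMIs in 10 cells and 4 CD169-DTR UMIs in 3 cells.

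To compare Foxp3-positive with Foxp3-negative Cd4 T cells without clusters, T cells were split by their own reads. Foxp3-positive cells (a Foxp3 UMI and no Cd8a or Cd8b1 UMI) numbered 39 in WT and 13 in CD169-DTR, and Foxp3-negative Cd4 cells 56 and 39. Foxp3 made this split and is not compared. The split used reads before thinning, and Foxp3-positive cells did not need a Cd4 UMI. Foxp3-negative Cd4 cells were shallower, with a median of 4806 against 7591 UMIs in WT and 5286 against 6065 in CD169-DTR. How many of them were Tregs whose Foxp3 RNA was not captured was not tested. After thinning, 30 and 37 WT cells and 11 and 28 CD169-DTR cells were deep enough. In WT, 28 of 30 Foxp3-positive cells had an Ikzf2 UMI, 26 had Tnfrsf4, 26 had Tnfrsf18, 21 had Icos and 19 had Il2ra. Among the Foxp3-negative Cd4 cells 17 of 37 had Ikzf2, 14 had Tnfrsf4, 26 had Tnfrsf18, 24 had Icos and 2 had Il2ra. In CD169-DTR, 11 of 11 Foxp3-positive cells had Ikzf2, 7 had Tnfrsf4, 9 had Tnfrsf18, 8 had Icos and 1 had Il2ra, against 3, 11, 14, 18 and 2 of 28 Foxp3-negative Cd4 cells.

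In WT, Il2ra showed the largest ratio of the 8 other genes, with 51 UMIs in Foxp3-positive and 2 in Foxp3-negative Cd4 cells (log2 ratio 4.97, interval 3.05 to 8.06). Tnfrsf4 followed at 1433 against 358 CPM (2.00, 1.55 to 2.47), Ikzf2 at 933 against 311 CPM (1.59, 1.08 to 2.11) and Tnfrsf18 at 850 against 385 CPM (1.14, 0.66 to 1.64). Icos was at 450 and 419 CPM with an interval that includes 0 (0.10, -0.45 to 0.65). Areg had 16 UMIs in 7 of 30 Foxp3-positive cells, and 18 UMIs that all lay in 1 of 37 Foxp3-negative Cd4 cells (0.13, -0.94 to 1.19). Thus 4 of 6 measured genes were at least 2-fold higher, where 9.04% of all 1970 genes tested were. Without thinning the Il2ra ratio was 3.05 and that of Areg -2.13, with 130 of the 132 Areg UMIs of the Foxp3-negative Cd4 gate in 1 cell.

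In CD169-DTR, Ikzf2 was at 727 CPM in Foxp3-positive and 98.2 CPM in Foxp3-negative Cd4 cells (2.89, 1.86 to 4.03) and Icos at 659 and 304 CPM (1.12, 0.35 to 1.88). Tnfrsf4 was at 318 and 214 CPM (0.57, -0.49 to 1.58) and Tnfrsf18 at 454.5 and 339 CPM (0.42, -0.44 to 1.24). Here 2 of 4 measured genes were at least 2-fold higher, with 11.2% of all 1031 genes. Il2ra had 2 against 7 UMIs, too few for the minimum of 20 UMIs that a gene needed to be counted as measured. The gates also differed in how many of the genes one cell used: at least 3 of the other 8 genes were detected in 29 of 30 WT and 9 of 11 CD169-DTR Foxp3-positive cells, in 20 of 37 and 8 of 28 Foxp3-negative Cd4 cells, and in 6 of 132 and 1 of 74 Cd8 cells.

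**Figure D2:**
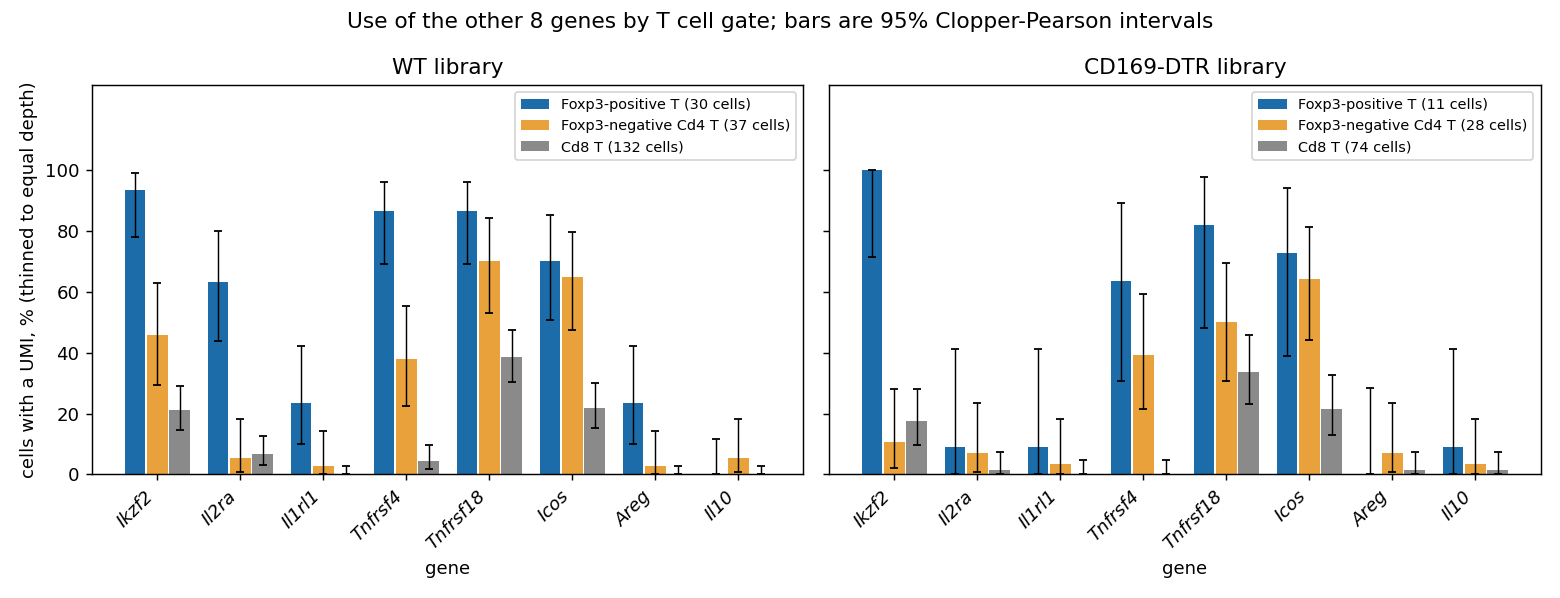
Percentage of cells with a UMI of each of the 8 other genes after thinning to 4000 UMIs, in Foxp3-positive T cells (blue), Foxp3-negative Cd4 T cells (orange) and Cd8 T cells (gray), WT library left and CD169-DTR library right, with error bars for the 95% Clopper-Pearson interval. Il2ra was detected in 19 of 30 WT but 1 of 11 CD169-DTR Foxp3-positive cells, whereas Icos was detected in 21 of 30 and 8 of 11.

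Between the libraries, all 9 genes had a log2 ratio of WT over CD169-DTR above 0 in the summed UMIs of T cells. Of all 9448 genes tested there, 5609 were above 0. Areg was at 106 CPM in WT and 26.7 CPM in CD169-DTR (log2 ratio 1.99, 1.51 to 2.51), Il2ra at 135 and 37.7 CPM (1.85, 1.44 to 2.28) and Tnfrsf4 at 305 and 102 CPM (1.58, 1.33 to 1.84). Of the 358 Areg UMIs in WT, 130 lay in 1 Treg-like cell and 139 in the 9 ILC2-marker cells. Of the 39 in CD169-DTR, 22 lay in the 3 ILC2-marker cells. Il10 had 20 and 4 UMIs and an interval that includes 0 (1.11, -0.46 to 3.12). The other 5 genes were less than 2-fold apart: Foxp3 at 58.4 and 32.9 CPM (0.83), Ikzf2 at 331 and 218 CPM (0.60), Il1rl1 at 45.1 and 30.1 CPM (0.58), Tnfrsf18 at 322 and 246 CPM (0.39) and Icos at 211 and 162 CPM (0.38). Without the Il17a Il13 subcluster, a setting added after the data were seen, the log2 ratio was 2.08 for Il1rl1 and 3.11 for Areg.

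That made 4 of 9 genes at least 2-fold higher in WT and 0 at least 2-fold lower. Of all 9448 genes tested, 6.2% were that much higher and 1.44% that much lower. Il10 was 1 of the 4, on 20 and 4 UMIs, and 14 of the 20 lay in dividing WT cells. The median log2 ratio was 0.83 over the 9 genes and 0.10 over all genes tested. These values depended on how the cells were weighted. When each T cell was given equal weight, Il2ra had a log2 ratio of 0.95, Tnfrsf4 0.73, Foxp3 0.41 and Il1rl1 -0.28. Only Areg (1.63) remained at least 2-fold higher, and the median of the 9 genes was 0.41. The part of cells of high UMI content in the difference was not tested. Free RNA, measured in barcodes of 10 to 100 UMIs, held Tnfrsf4 at 15.0 CPM in WT and 5.08 CPM in CD169-DTR and Il2ra at 3.68 and 0.952 CPM, and was estimated at 8.14% and 2.36% of T cell UMIs. Subtracting it from the counts of each gene, with the T cell totals left unreduced, gave log2 ratios of 1.84 for Il2ra and 1.58 for Tnfrsf4.

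Within the Treg-like subcluster Foxp3 itself was at 203 and 188 CPM (0.11, -0.38 to 0.61), an interval that includes 0, in a subcluster named without Foxp3. Il2ra was at 292 and 98.1 CPM (1.57, 0.97 to 2.24), Il1rl1 had 59 and 9 UMIs (1.29, 0.27 to 2.49) and Tnfrsf4 was at 1082 and 546 CPM (0.99, 0.72 to 1.26). Areg had 183 and 5 UMIs (3.78, 2.53 to 5.42), most of the WT count being the single cell described above. Ikzf2 (0.38), Tnfrsf18 (0.20) and Icos (-0.08) were within 2-fold. Of 8 measured genes 3 were at least 2-fold higher in WT, with 8.12% of all genes in this subcluster, and the medians were 0.68 and 0.01. Of all 5281 genes tested in this subcluster, 220 were at least 2-fold lower in WT. Of the effector T cell genes 8 were measured in the same subcluster, 1 at least 2-fold higher in WT (Gzmb, 1.54) and 3 lower, with a median of -0.59. The lower ones were Ifng, the cytokine of type 1 T cells (245 and 1716 CPM, -2.81, -3.07 to -2.55), Tnf (-2.04) and the chemokine Ccl5 (-1.52), and their part in the differences of the 9 genes there was not tested.

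The comparison was then restricted to Foxp3-positive T cells. Il2ra was detected in 25 of 39 WT cells with 254 UMIs and in 5 of 13 CD169-DTR cells with 7 UMIs, or 507 and 76.0 CPM (2.74, 1.67 to 4.07). Tnfrsf4 was at 1326 and 412 CPM (1.69, 1.21 to 2.20), Il1rl1 had 61 and 3 UMIs (1.90, 0.29 to 4.22), and Areg had 42 UMIs in 10 cells against 0 UMIs, a log2 ratio of at least 1.36 with 3 counts as the floor. Tnfrsf18 was at 790 and 543 CPM (0.54, 0.11 to 1.00), Ikzf2 at 768 and 716 CPM (0.10, -0.28 to 0.50) and Icos at 397 and 586 CPM (-0.56, -1.00 to -0.10).

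These cells were deeper in WT than in CD169-DTR (median 7591 and 6065 UMIs), and the dividing subcluster held 9 WT cells with a Foxp3 UMI, 3 of them with a Cd8 UMI and so outside this gate, but 0 such CD169-DTR cells. Thinned to 4000 UMIs, Il2ra kept 51 and 2 UMIs (3.22, 1.30 to 6.31) and Tnfrsf4 172 and 14 (2.17, 1.39 to 3.07). Without the dividing subcluster the unthinned ratios were 2.77 and 2.01. Counted in this way, 4 of 7 measured genes were at least 2-fold higher in WT unthinned (all genes 16.6%), 4 of 7 without the dividing subcluster (12.5%) and 2 of 5 thinned (10.8%). With 13 CD169-DTR cells from 1 library, the spread between mice is unknown.

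The other T cell subclusters gave further differences. In the Ccr7 Lef1 subcluster Ikzf2 had a log2 ratio of 2.50 (1.92 to 3.14), Tnfrsf4 2.64 (41 and 5 UMIs, 1.30 to 4.34) and Tnfrsf18 1.15 (225 and 101 CPM, 0.59 to 1.74). Of all 4361 genes tested there, 571 (13.1%) were at least 2-fold higher in WT and 82 lower. Other lists were also higher in WT there: 4 of 6 measured effector T cell genes (median 2.30) and 7 of 9 other regulatory T cell genes (median 1.47) by at least 2-fold. Whether the subcluster held the same kinds of cells in both libraries was not tested. In Cd8a cells Tnfrsf4 had 39 and 2 UMIs (3.27, 1.32 to 6.37), 16 of them in 1 WT cell, against 3.46% of all genes, and Tnfrsf18 was at 184 and 167 CPM with an interval that includes 0 (0.14, -0.19 to 0.48). The Il17a Il13 subcluster went the other way for Tnfrsf18 (137 and 335 CPM, -1.29, -1.92 to -0.66), where 5.51% of all genes were at least 2-fold lower in WT. Of these Tnfrsf18 UMIs, 33 of 42 in CD169-DTR lay in the 3 ILC2-marker cells and 33 of 49 in WT in the 9 such cells, and the cells with more gamma-delta marker UMIs held 4 and 8. Dividing cells held 144 Il2ra, 211 Tnfrsf4 and 133 Icos UMIs in 26 WT cells and 0, 1 and 3 UMIs in 7 CD169-DTR cells, which is too few cells to set a level in CD169-DTR.

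Outside T cells the genes fell on classes known to use them. Il1rl1 was highest in mast cells or basophils at 637 WT and 378 CD169-DTR CPM (24 and 8 cells). Microglia, which were 4097 and 4678 cells, held it at 3.19 and 4.72 CPM (-0.57, -0.91 to -0.23), beside 3.42 and 2.86 CPM in free RNA. How much of the microglia count was free RNA was not estimated. A dendritic cell (DC) class led by Ccr7 and Ccl22, the activated migratory state, used Il2ra at 148 and 104 CPM, Tnfrsf4 at 198 and 155 CPM and Tnfrsf18 at 97.6 and 108 CPM. For Il2ra the interval of this DC class overlapped that of the whole T cell class in WT and lay above it in CD169-DTR. For Tnfrsf4 it lay below T cells in WT and overlapped them in CD169-DTR. The ratios between libraries in that class were 0.52 (-0.07 to 1.16), 0.35 (-0.13 to 0.87) and -0.14 (-0.74 to 0.51), although the class numbered 145 cells in WT and 15 in CD169-DTR.

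Il10 was mainly a macrophage transcript. Macrophages held 308 WT and 90 CD169-DTR UMIs, at 16.7 and 9.27 CPM (0.85, 0.51 to 1.20), and the monocyte-like macrophage cluster led by Clec4e, Vcan and Ly6c2 was highest at 24.1 and 16.96 CPM. The share of thinned macrophages with an Il10 UMI was 63 of 1718 (3.67%) in WT and 22 of 666 (3.30%) in CD169-DTR. These shares overlapped in their intervals (2.83 to 4.67 and 2.08 to 4.96). Of all Il10 UMIs in cells, 4.95% in WT and 3.01% in CD169-DTR were in T cells. Il2ra in macrophages was far lower, with 48 WT and 2 CD169-DTR UMIs (3.66, 1.73 to 6.75), at 2.60 and 0.206 CPM. Free RNA held it at 3.68 and 0.952 CPM. The share of macrophage UMIs that came from free RNA was not estimated, so these levels do not show how much of the count it made up.

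Areg was higher in CD169-DTR in some myeloid classes, opposite to T cells. It was at 10.3 and 16.5 CPM in macrophages (-0.69, -1.00 to -0.37), and at 19.7 and 37.5 CPM in the class led by Cd209a (-0.93, -1.28 to -0.57). The Clec4e Vcan Ly6c2 cluster had 154 WT and 149 CD169-DTR UMIs, 16.6 and 49.5 CPM, with 60 of the 149 in 1 cell. In the Ccr7 Ccl22 DC it had 13 and 19 UMIs (-3.20, -4.34 to -2.11) and in a DC class led by Xcr1 and Clec9a 5 and 31 UMIs (-4.89, -6.61 to -3.51), but single CD169-DTR cells held 17 of the 19 and 29 of the 31. Leaving out the cell with most UMIs in each library brought the macrophage ratio to -0.25. Other myeloid classes did not share this direction: Areg had 22 and 14 UMIs in microglia (0.93, -0.10 to 2.01), 34 and 1 in pDC (1.96, -0.62 to 7.30) and 14 and 0 in granulocytes, too few to be measured.

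In 14 classes other than T cells, 45 pairs of a gene and a class reached the minimum of 20 UMIs over both libraries. The ratio was above 0 in 30 of them, at least 2-fold higher in WT in 8 and at least 2-fold lower in 2. The 8 were Il2ra in macrophages and NK cells, Tnfrsf4 in macrophages and B cells, Tnfrsf18 in microglia and endothelial cells, Ikzf2 in Xcr1 Clec9a DC and Areg in pDC. The 2 lower pairs were Areg in the Xcr1 Clec9a DC and Ccr7 Ccl22 DC. Over all genes tested, the share above 0 was lowest in microglia (5184 of 13527) and highest in mast cells or basophils (1762 of 2905). Among all genes tested, the shares at least 2-fold higher and at least 2-fold lower in WT were 3.83% and 1.73% in macrophages, 1.41% and 1.38% in microglia, 0.855% and 1.13% in the unnamed class led by Lpl and Cst7, and 3.68% and 3.09% in the Cd209a class. They were 4.42% and 2.33% in NK cells, 6.39% and 4.18% in B cells, 5.11% and 3.43% in Xcr1 Clec9a DC, 11.7% and 6.98% in Ccr7 Ccl22 DC, and 18.4% and 3.79% in pDC. In the remaining classes they were 26.2% and 10.5% in mast cells or basophils, 2.42% and 0.937% in endothelial cells, and 1.81% and 4.65% in choroid plexus or ependymal cells. Several of the 8 rested on few UMIs: Tnfrsf4 in macrophages on 18 and 2, at 0.976 and 0.206 CPM against 15.0 and 5.08 CPM in free RNA, Il2ra in NK cells on 19 and 2, Ikzf2 in Xcr1 Clec9a DC on 50 and 1, Areg in pDC on 34 and 1, and Tnfrsf4 in B cells on 20 and 8, of which single cells held 17 and 7. Free RNA also held more Tnfrsf18 in WT (28.4 and 6.98 CPM), above its levels in microglia (0.783 and 0.299 CPM) and endothelial cells (6.72 and 1.24 CPM). The part of free RNA in these Tnfrsf18 ratios and in the Tnfrsf4 ratio of macrophages was not tested.

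**Figure D3:**
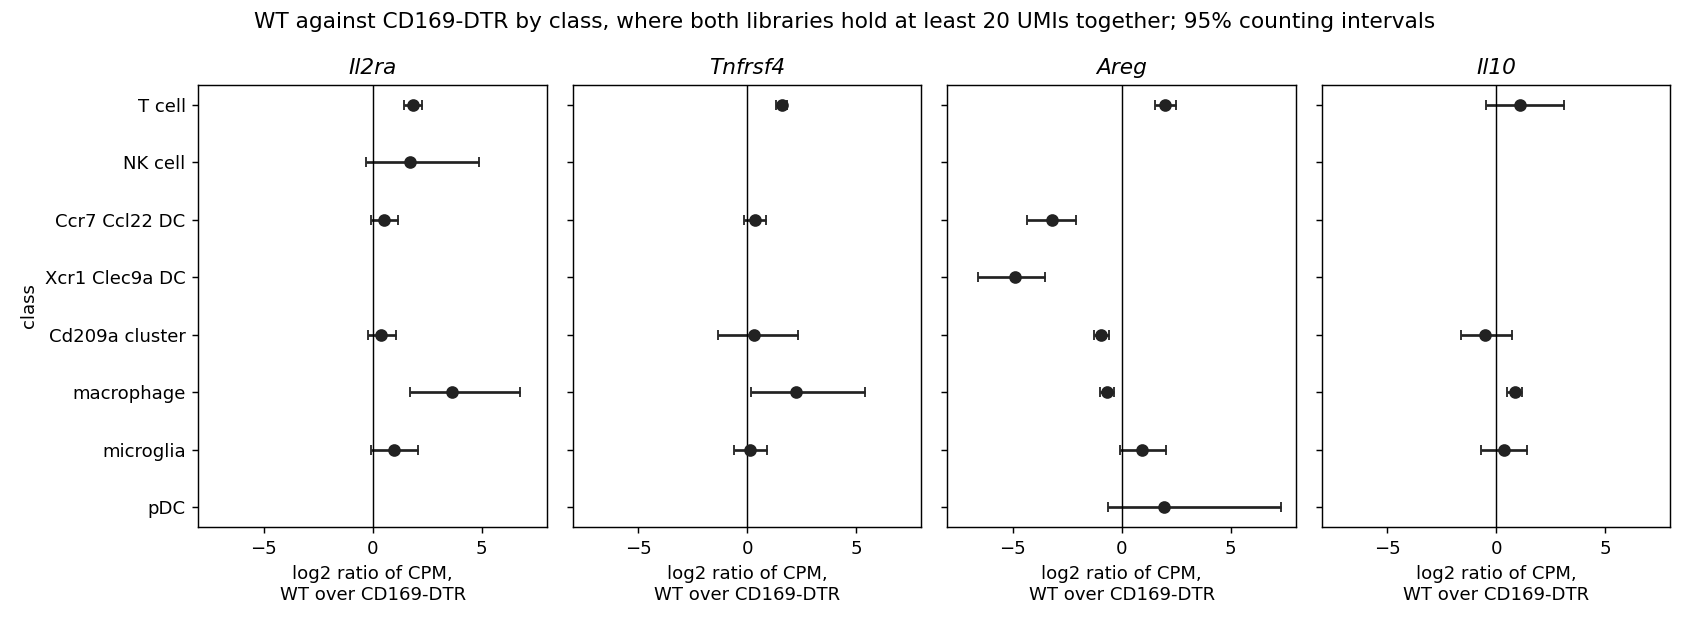
Log2 ratio of CPM, WT over CD169-DTR, for Il2ra, Tnfrsf4, Areg and Il10 (panels) in each class (rows) where the libraries together held at least 20 UMIs, with 95% counting intervals. Areg is above 0 in T cells at 1.99 and below 0 in both DC classes, the Cd209a class and macrophages, at -3.20, -4.89, -0.93 and -0.69.

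Further gene lists set the 9 genes in their pathways. Of 13 partner genes (ligands, receptors and co-receptors), 9 were measured in T cells and 0 were at least 2-fold apart between the libraries, with a median log2 ratio of 0.08: Il2rb, the shared IL-2 and IL-15 receptor chain, was at 288 and 291 CPM and Il2rg, the common cytokine receptor chain, at 247 and 231 CPM. Of 25 other regulatory T cell genes 23 were measured, 6 were at least 2-fold higher in WT and 0 lower, with a median of 0.50, beside 6.2% and 1.44% of all genes. Over narrower sets of cells the list had a median of 0.01 in the Treg-like subcluster (10 of 20 measured genes above 0, 2 higher, 1 lower) and of -0.14 in Foxp3-positive T cells (9 of 18 above 0, 3 higher, 1 lower). Of all 5281 genes tested in the Treg-like subcluster, 2672 were above 0, 429 higher and 220 lower. Of all 4056 genes tested in Foxp3-positive T cells, 2140 were above 0, 674 higher and 279 lower. The 6 genes in all T cells were Ctla4, the inhibitory receptor for CD80 and CD86 (178 and 70.5 CPM, 1.33, 1.03 to 1.65), Tnfrsf9, a costimulatory receptor also known as 4-1BB (1.02), Cd83 (1.25), Lrrc32 (20 and 1 UMIs), Pparg (45 and 2 UMIs) and Penk (181 and 1 UMIs, 121 of them in 1 cell). Itgae, an integrin of tissue-resident T cells, was the lowest at -0.93 (15.1 and 28.8 CPM). Of 12 effector T cell genes 11 were measured, with a median of -0.04. Gzmb (1.14), Il17a (182 and 3 UMIs, 4.71) and Il13 (316 and 67 UMIs, 1.03) were at least 2-fold higher in WT. The Il17a UMIs lay in 10 WT and 2 CD169-DTR cells. Those of Il13 lay in 6 and 2 cells, with 91 and 38 of them in single cells. Ifng was at 192 and 363 CPM (-0.92, -1.09 to -0.75).

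The lists were also compared between Foxp3-positive and Foxp3-negative Cd4 T cells within each library, where 9.04% of all genes in WT and 11.2% in CD169-DTR were at least 2-fold higher in Foxp3-positive cells. Of the partner genes 2 were measured in each library and 0 were 2-fold apart. In WT, 8 of 13 measured regulatory T cell genes were at least 2-fold higher in Foxp3-positive cells, among them Ctla4 (883 and 149 CPM, 2.57), Tnfrsf9 (2.04), Nrp1, a semaphorin co-receptor (1.89), and Capg, an actin-capping protein (1.74), and Penk was lower (-3.02). In CD169-DTR 2 of 6 were higher, Capg (2.71) and Ctla4 (2.43). Among all genes, 125 of 1970 in WT and 86 of 1031 in CD169-DTR were at least 2-fold lower in Foxp3-positive cells. Of the effector genes 1 of 5 was at least 2-fold higher and 2 lower in WT (median -0.60), and 1 of 6 higher and 4 lower in CD169-DTR (median -1.64). The higher one was Gzmb, a cytotoxic granule protease, with log2 ratios of 2.94 in WT and 2.31 in CD169-DTR, while Ifng had 0 UMIs in Foxp3-positive cells against 47 in WT and 222 in CD169-DTR Foxp3-negative Cd4 cells. Some markers in this list also named the Treg-like subcluster, but not these gates.

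Over 13 named classes in both libraries (26 points, which share library and depth), the genes whose log2(CPM + 1) followed each of the 9 most closely were listed as a description. Foxp3 was nearest to the T cell genes Themis (Pearson r 0.889) and Izumo1r (0.887), Ikzf2 to Lat (0.927) and Nmb (0.887), and Icos to Cxcr6 (0.925) and Acsbg1 (0.918). Il2ra and Tnfrsf4 were nearest to each other (0.895), followed by Gypc and Ccr7 (both 0.838). Il1rl1 was nearest to the mast cell genes Tph1 (0.936) and Il4 (0.899), Tnfrsf18 to Pkp3 (0.864) and Stat4 (0.849), Il10 to the macrophage gene Arg1 (0.804) and Galnt9 (0.780), and Areg, with the weakest match, to Cd8a (0.724) and Gna13 (0.704).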

How the data were processed

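Single-cell libraries (10x 3′ v3) of sorted CD45.2-positive cells, 1 from WT and 1 from CD169-DTR mice, were deposited by the authors as UMI counts per gene and barcode, made with Cell Ranger 3.1.0 per the file headers on mm10 per the labels. No value was normalized before deposit. The libraries held 101808996 (WT) and 84065489 (CD169-DTR) UMIs. Filters of the study's methods (200 UMIs, 17% mitochondrial) would leave 10879 and 7890 barcodes; a minimum of 1000 UMIs was used here.

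Cells were integrated and clustered with Seurat 5.3.0 (R 4.3.3) on 2000 variable features without the 9 genes, 50 integration dimensions, 30 clustering dimensions and resolution 1. Lymphocyte clusters were divided further with 20 dimensions and resolution 0.5. Classes were named where at least 3 markers were detected (10 UMIs and 25% of the highest cluster level). Doublets were kept, and cells above the 95th percentile of the Scrublet score (scanpy 1.11.5) were removed as an alternative.

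UMIs were summed per class and library and given as CPM with exact Poisson intervals, ratios with exact conditional intervals and shares with Clopper-Pearson intervals (95%, scipy 1.17.1). Shares, and comparisons between T cell gates, used cells thinned to 4000 UMIs, shallower cells being left out. A gene was measured with at least 20 UMIs over both sides and counted as higher or lower from 2-fold. A count of 0 was bounded with 3 counts over the group. With 1 library per group no test was possible. Ratio intervals were checked on simulated Poisson counts only. These hold no variation between cells, so the check does not cover genes whose UMIs lie in few cells. Thinning was checked on a part of the real cells, which came out at the set depth.

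The 9 genes, the gene lists and the alternatives were chosen with earlier results of these data known. Named were all 9 genes, listed partner, regulatory and effector genes with enough UMIs, and for each of the 9 the 2 genes most alike by Pearson correlation among those with at least 100 UMIs. The richest Areg cells were singled out after their values were seen.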

Additional observations from a re-analysis of the deposited data

How the results depend on the processing

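No paired analysis was possible because each group was 1 library; for the same reason no library could be left out. With each T cell weighted equally, 1 of the 9 genes was at least 2-fold higher in WT instead of 4; by construction this gives cells of high UMI content less weight. In the other settings run on T cells the count was between 3 and 5. The log2 ratio in T cells ranged over these settings from 1.63 to 3.78 for Areg, 0.95 to 2.47 for Il2ra, 0.73 to 1.67 for Tnfrsf4, 0.11 to 0.99 for Foxp3 and -0.28 to 2.08 for Il1rl1, the settings without the Il17a Il13 subcluster, without the dividing subcluster and with Treg-like cells alone having been added after the data were seen. In the other classes the 2 pairs at least 2-fold lower in WT became 4 without cells of high doublet score, 4 with the libraries merged without integration and 0 without the cell with most UMIs of the gene, the last by leaving out the single cells that held most Areg UMIs of the DC classes; for the first 2 settings the cause was not tested. The Foxp3-positive share of T cells ran from 5.26% to 10.4% in WT and from 3.90% to 6.76% in CD169-DTR, and was higher in WT in each setting run. Median-ratio scaling moved the median log2 ratio of all genes in T cells from 0.10 to 0.00068. CD169-DTR values in Foxp3-positive T cells rest on 13 cells, and Il10 in T cells on 20 and 4 UMIs.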
